A study of Mus musculus with 4 samples.

Results

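The 8 genes described here, *Ccr7*, *Fscn1*, *Il12b*, *Cd40*, *Relb*, *Il4i1*, *Socs2* and *Cacnb3*, are known for their part in the maturation and migration of dendritic cells (DCs). They were chosen by symbol, and each matched 1 row in both deposited gene tables, among 32285 genes of the CD45 sort and 31053 genes of the T cell sort. The tumor was a single-cell clone of B16-F10, a mouse melanoma line, whose gene for ZsGreen (ZsG), a green fluorescent protein, was switched on by doxycycline. It grew under the skin of wild-type C57BL/6 mice that drank doxycycline, and every group shared that host, tumor and drug. Tumor-infiltrating leukocytes were taken on day 8 and sorted by ZsG fluorescence, so that ZsG+ cells carried fluorescence made by the tumor and ZsG- cells had too little for the gate. There were 2 sorts, total CD45+ cells and CD45+TCRb+ T cells, each with 1 ZsG+ and 1 ZsG- library, and neither the number of mice nor their age was given in the sources used here.

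With 1 library per gate no difference between gates could be tested, and the intervals given below are exact 95% intervals that cover counting error only. The CD45 libraries held 5437 ZsG- and 5168 ZsG+ barcodes, of which 4698 and 4124 were kept, with medians of 5769.5 and 9931 unique molecular identifiers (UMIs) per kept cell. The T cell libraries kept 948 ZsG- and 1879 ZsG+ cells, with medians of 6634 and 8180 UMIs. The gates of the T cell sort were labelled in 2 ways that contradicted each other. The library with more barcodes was taken as ZsG+, and under the other reading every ZsG+ over ZsG- ratio of that sort changes sign. The library taken as ZsG+ held 108 of 137 Treg-like, 149 of 215 exhausted CD8 T-like and 79 of 224 naive T-like cells of the sort. Of all 1381 T-like cells of the sort it held 733. In the CD45 sort, whose labels did not conflict, the ZsG+ library held 6 of 36, 55 of 458 and 2 of 230 cells of these classes. Of all 1751 T-like cells there it held only 217, and the paper states that most lymphocytes with ZsG fell into the ZsG- gate of that sort. The T cell sort also held many cells without T cell genes, among them the DCs used below. The study removed cells of that sort with few CD3 reads, which was done here for T-like cells only. Only 6 barcodes of the CD45 sort and 1 of the T cell sort occurred in both of its libraries.

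Immature DCs sit in tissue and sample antigen, and on sensing danger or after taking up dying cells they switch programs. They then lower phagocytosis, gain the chemokine receptor CCR7, rebuild their actin skeleton and travel along gradients of CCL19 and CCL21 to the draining lymph node, where they show antigen to T cells with costimulation and cytokines. The same program brings in molecules that restrain T cells, so that mature DCs of tumors are known for carrying stimulatory and regulatory genes side by side.

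The genes lie on 6 chromosomes of GRCm38, and all are protein-coding. *Fscn1* (ENSMUSG00000029581) spans bases 142960343 to 142973185 of chromosome 5, *Cd40* (ENSMUSG00000017652) bases 165055627 to 165072948 of chromosome 2, and *Cacnb3* (ENSMUSG00000003352) bases 98630840 to 98644529 of chromosome 15, all on the plus strand. *Ccr7* (ENSMUSG00000037944, bases 99144196 to 99155077, minus strand) and *Il12b* (ENSMUSG00000004296, bases 44400063 to 44414033, plus strand) share chromosome 11. *Relb* (ENSMUSG00000002983, bases 19606217 to 19629438, minus strand) and *Il4i1* (ENSMUSG00000074141, bases 44816387 to 44840809, plus strand) share chromosome 7. *Socs2* (ENSMUSG00000020027) spans bases 95385362 to 95417180 of chromosome 10, minus strand.

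Promoter sequences from RefSeq (GRCm38.p6) were at hand for 4 of the 8 genes. They are shown because the genes were found together in the same cells, and 3 are printed 5′ to 3′, each as the 250 bases before a RefSeq transcription start on the plus strand, at chr5:142960105-142960354 for *Fscn1*, chr11:44399813-44400062 for *Il12b* and chr7:44836038-44836287 for *Il4i1*. Capitals mark the letters TATAAA.
*Fscn1*: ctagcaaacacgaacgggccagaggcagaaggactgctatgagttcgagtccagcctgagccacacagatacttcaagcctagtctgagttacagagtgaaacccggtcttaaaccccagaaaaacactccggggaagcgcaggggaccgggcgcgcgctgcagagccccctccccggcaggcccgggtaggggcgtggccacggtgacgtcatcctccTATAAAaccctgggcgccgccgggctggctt
*Il12b*: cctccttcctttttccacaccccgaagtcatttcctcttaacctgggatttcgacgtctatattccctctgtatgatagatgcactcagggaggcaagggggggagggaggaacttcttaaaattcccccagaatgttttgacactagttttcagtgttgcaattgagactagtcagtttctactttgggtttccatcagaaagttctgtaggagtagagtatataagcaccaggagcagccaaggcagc
*Il4i1*: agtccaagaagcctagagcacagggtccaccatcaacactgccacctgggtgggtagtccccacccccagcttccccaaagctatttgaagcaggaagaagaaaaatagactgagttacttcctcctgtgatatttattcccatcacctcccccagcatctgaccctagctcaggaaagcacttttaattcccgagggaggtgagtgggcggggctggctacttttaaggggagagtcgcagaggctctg
The GC content of these stretches was 62.4% for *Fscn1*, 46.0% for *Il12b* and 53.2% for *Il4i1*. Both strands of the 5 entries of the 4 genes, *Cacnb3* having 2, were searched for the NF-kappaB consensus (kappaB), the STAT element GAS (TTCNNNGAA), the interferon element ISRE and the AP-1 element TGANTCA. The TATA letters named above were added after these 4 had no match. The only match was that of TATA in *Fscn1*, 31 to 26 bases before the start. Over 32851 promoters of the same length, 7.25% held kappaB, 7.02% GAS, 6.75% AP-1, 2.97% ISRE and 12.4% TATA. A missing match says only that these letters are not in this window.

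The cells were clustered without the 8 genes, and each cluster was named from other marker genes. A cluster of 60 cells (12 ZsG- and 48 ZsG+) of the CD45 sort raised 11 of 11 mature DC markers, led by *Ccl22*, and is called mature DC-like. The T cell sort had such a cluster of 57 cells (5 ZsG- and 52 ZsG+) that raised 10 of 11. The CD45 sort further held 517 DC2-like, 103 DC1-like, 251 plasmacytoid DC (pDC)-like, 1542 macrophage-like, 619 classical and 235 non-classical monocyte-like, 1751 T-like, 2631 NK/ILC-like and 40 B-like cells. Clusters without enough markers for a name are called by a leading gene, as for 809 *Ly6i*-led and 55 *Apod*-led cells.

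Each of the 8 genes had its highest level in the mature DC-like cells, in both sorts, among all classes of at least 20 cells. Levels are given as UMIs per 1000000 summed UMIs of a class (CPM). In the CD45 sort they ran from 305 CPM for *Cd40* to 3025 CPM for *Ccr7*, and in the T cell sort from 344 to 2837 CPM for the same genes. When each cell of the CD45 sort took the class of its highest marker score, 110 cells were mature DC-like and the levels were lower, from 215.5 CPM for *Cd40* to 1745 CPM for *Ccr7*, with *Il4i1* at 364 and *Il12b* at 291 CPM. Compared with the pooled DC1-like and DC2-like cells, all 8 were at least 2-fold higher in the CD45 sort. Of 10022 genes with 20 or more UMIs there, 12.1% were higher by that rule and 24.3% lower. The log2 ratios of the T cell sort ran from 1.73 for *Cd40* to 6.09 for *Fscn1*. The median log2 ratio of the 8 genes was 5.01 in the CD45 sort and 5.17 in the T cell sort, beside medians of -0.24 over all genes in both. Because a mature cluster was compared with other clusters of the same cells, these ratios are a description and not a test.

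**Figure D1:**
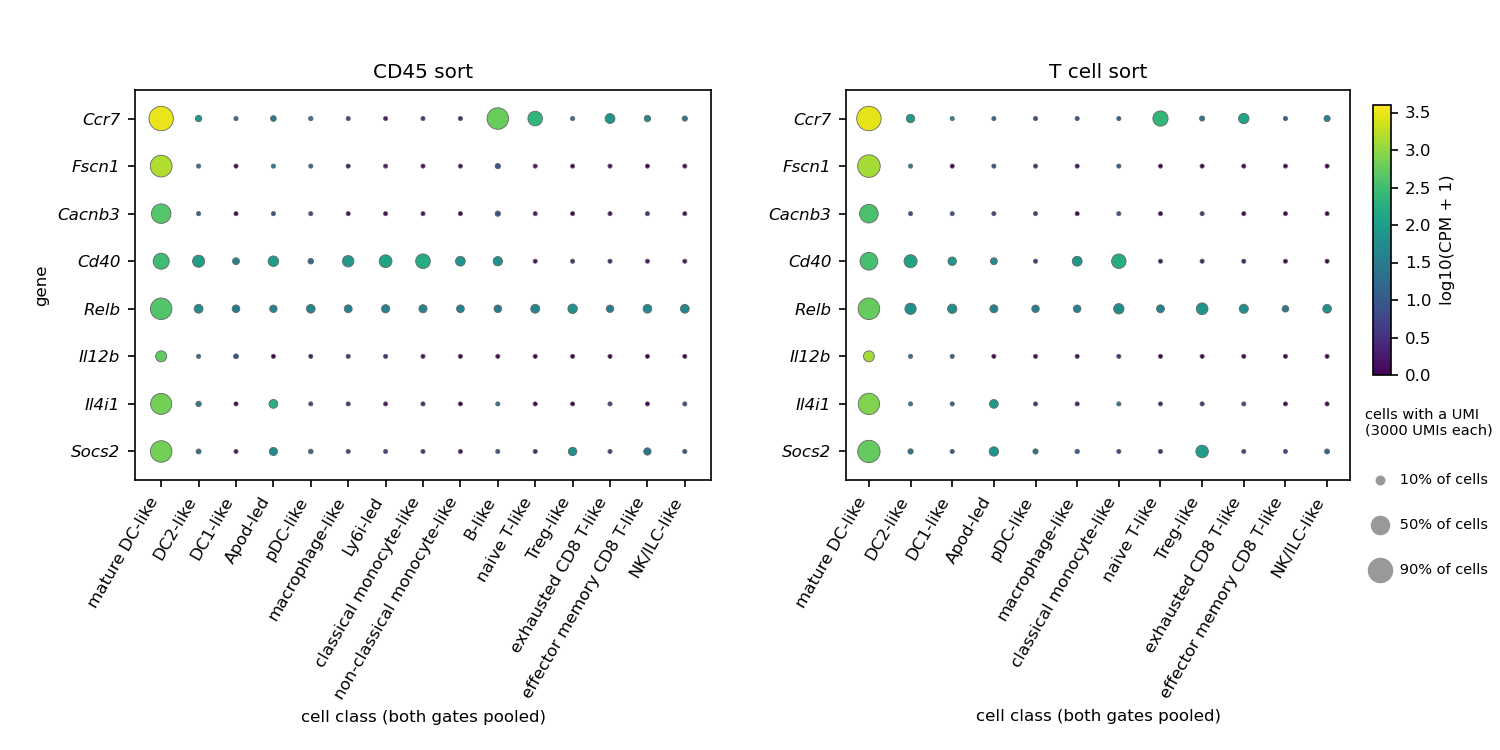
Level (color, log10 of CPM + 1) and share of cells with a UMI (dot area, each cell thinned to 3000 UMIs) of the 8 genes by cell class in the CD45 sort (left) and the T cell sort (right), both gates pooled. The mature DC-like column has the highest level of every gene, from 305 CPM (*Cd40*) to 3025 CPM (*Ccr7*) in the CD45 sort, while *Cd40* and *Relb* also show in many other classes and *Ccr7* in B-like and naive T-like cells.

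*Ccr7*, which encodes the receptor that guides mature DCs and naive T cells to lymph nodes, was the most abundant of the 8 in mature DC-like cells. Its level was 3025 CPM (2880 to 3176; 1635 UMIs) against 82.6 CPM in DC1-like and DC2-like cells, a log2 ratio of 5.19 (5.07 to 5.32). The T cell sort gave 2837 against 75.5 CPM, a log2 ratio of 5.23 (4.94 to 5.53). It was found in nearly every cell, with a UMI in 59 of 60 mature DC-like cells of the CD45 sort and in 57 of 57 of the T cell sort. Per cell, the CD45 sort ranged from 0 over a median of 2790.2 to 9758 CPM. Outside DCs, *Ccr7* was at 572 CPM (457 to 709) in the 40 B-like cells and at 223 CPM in naive T-like cells. Naive T-like cells were above the other T-like cells by a log2 ratio of 1.50 (1.32 to 1.67) in the CD45 sort and 1.79 (1.59 to 1.98) in the T cell sort.

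*Fscn1* encodes fascin, the protein that bundles actin in the dendrites of mature DCs, and it had the highest ratio of mature DC-like over other DCs in both sorts. The mature DC-like cells held 805 UMIs, or 1489.5 CPM (1388 to 1596), against 28.6 CPM in DC1-like and DC2-like cells, a log2 ratio of 5.70 (5.50 to 5.91). The T cell sort gave 1302 against 19.1 CPM, a log2 ratio of 6.09 (5.53 to 6.72). No *Fscn1* UMI was found in the 103 DC1-like cells, where the floor set for a count of 0 was 3 UMIs. Macrophage-like cells were at 0.9 CPM and classical monocyte-like cells at 0.5 CPM. Among mature DC-like cells of the CD45 sort, 10 of 60 had no *Fscn1* UMI and the highest cell reached 7470.4 CPM, with a median of 1319 CPM. *Fscn1* was therefore present in most of these cells but at very different levels.

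*Il12b* encodes p40, the subunit shared by IL-12 and IL-23, cytokines through which DCs direct T cells and NK cells. Its level over the class was 524 CPM (464 to 588) in the CD45 sort and 1299 CPM in the T cell sort, with log2 ratios over DC1-like and DC2-like cells of 4.82 (4.55 to 5.11) and 6.04 (5.48 to 6.65). These means rested on few cells. In the CD45 sort 40 of 60 mature DC-like cells had no *Il12b* UMI, 1 cell held 116 of the 283 UMIs and the 5 highest cells held 77.0%. Of the 57 cells of the T cell sort 43 had none, 2 cells held 369 and 252 of the 816 UMIs, and the 5 highest held 91.3%. For the other 7 genes the 5 highest cells held between 18.9% and 43.1% of the UMIs in either sort. *Il12b* thus differed from the rest in how its UMIs were shared among cells, not only in its level. In the T cell sort 8 cells with 10 or more *Il12b* UMIs had T cell markers at 456 and NK/ILC markers at 204 CPM, with medians per cell of 17.9 and 0. The 43 cells without *Il12b* were at 45.0 and 5.00 CPM, and 7 cells with 10 or more in the CD45 sort at 13.8 and 0. Of the 57 cells 8.77% were among the 5% with the highest doublet score. Whether any barcode held more than 1 cell was not tested.

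*Cd40*, the receptor through which helper T cells license DCs, was the least particular to mature DC-like cells. It stood at 305 CPM (260 to 356) there and at 93.4 CPM in DC1-like and DC2-like cells, a log2 ratio of 1.71 (1.46 to 1.95). In the T cell sort the ratio was 1.73 (1.42 to 2.05). In ZsG- cells of the CD45 sort alone it was 0.78 (-0.19 to 1.62), short of 2-fold. Across myeloid classes of the CD45 sort, *Cd40* was at 165 CPM (154 to 178) in classical monocyte-like, 125 CPM in *Ly6i*-led, 105 CPM in DC2-like, 85.9 CPM in macrophage-like, 74.3 CPM in non-classical monocyte-like and 34.1 CPM in DC1-like cells. It was nearly absent from NK/ILC-like cells, at 0.44 CPM. *Cd40lg*, which encodes its ligand, had no UMI in mature DC-like cells of the CD45 sort (up to 6.83 CPM) and was at 2.46 CPM in T-like cells there. In T-like cells of the T cell sort *Cd40lg* was at 14.3 CPM (12.2 to 16.7).

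*Relb*, a subunit of the non-canonical NF-kappaB pathway that pairs with the product of *Nfkb2*, was measured in every class and highest in mature DC-like cells. Its level was 424 CPM (371 to 482) there and 49.2 CPM in DC1-like and DC2-like cells, a log2 ratio of 3.11 (2.87 to 3.34). The other named classes of the CD45 sort lay between 27.3 CPM (B-like) and 68.5 CPM (Treg-like), and NK/ILC-like cells at 47.0 CPM did not stand apart from pDC-like cells at 48.7 CPM. Mature DC-like cells of the T cell sort were at 568 CPM, with a log2 ratio of 3.31 (2.96 to 3.69). Among mature DC-like cells of the CD45 sort only 1 of 60 lacked a *Relb* UMI.

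*Il4i1* encodes a secreted oxidase that degrades aromatic amino acids and restrains T cells, partly through products that activate the aryl hydrocarbon receptor. It was at 675 CPM (608 to 748) in mature DC-like cells against 23.3 CPM in DC1-like and DC2-like cells, a log2 ratio of 4.86 (4.61 to 5.11). The T cell sort gave 812 against 23.5 CPM, a log2 ratio of 5.11 (4.60 to 5.68). The next class in the CD45 sort was the *Apod*-led cluster at 194 CPM, where 4 of 55 cells with UMIs of 4 or more of the genes held 78.4% of the *Il4i1* UMIs. Of 155 *Apod*-led cells of the T cell sort, 6 held 48.9%. DC1-like cells of the CD45 sort had no *Il4i1* UMI, and DC2-like cells were at 27.7 CPM.

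*Socs2*, an inhibitor that feeds back on cytokine receptors signalling through JAK and STAT proteins, was at 688 CPM (620.1 to 762) in mature DC-like cells and at 19.2 CPM in DC1-like and DC2-like cells. The log2 ratio was 5.16 (4.90 to 5.43), and 5.03 (4.42 to 5.70) in the T cell sort. Outside DCs it was highest among Treg-like cells, at 65.5 CPM (41.1 to 99.2) in 36 cells of the CD45 sort and between 79.8 and 124 CPM by the exact interval (84 UMIs) in 137 cells of the T cell sort. Naive T-like cells were low, below the other T-like cells by a log2 ratio of -2.83 (-5.89 to -0.96) in the CD45 sort and -3.22 (-5.51 to -1.65) in the T cell sort. *Ccr7* and *Socs2* therefore had opposite orders between naive and other T-like cells.

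*Cacnb3* encodes a beta subunit of voltage-gated calcium channels and is a familiar marker of mature DCs. Mature DC-like cells were at 437 CPM (383 to 496) against 11.9 CPM in DC1-like and DC2-like cells, a log2 ratio of 5.20 (4.87 to 5.54). The ratio in the T cell sort was 5.66 (4.75 to 6.73), from 232 against 10 UMIs. No UMI was found in DC1-like cells of the CD45 sort. Macrophage-like, monocyte-like and T-like cells were all below 1 CPM in that sort.

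**Figure D2:**
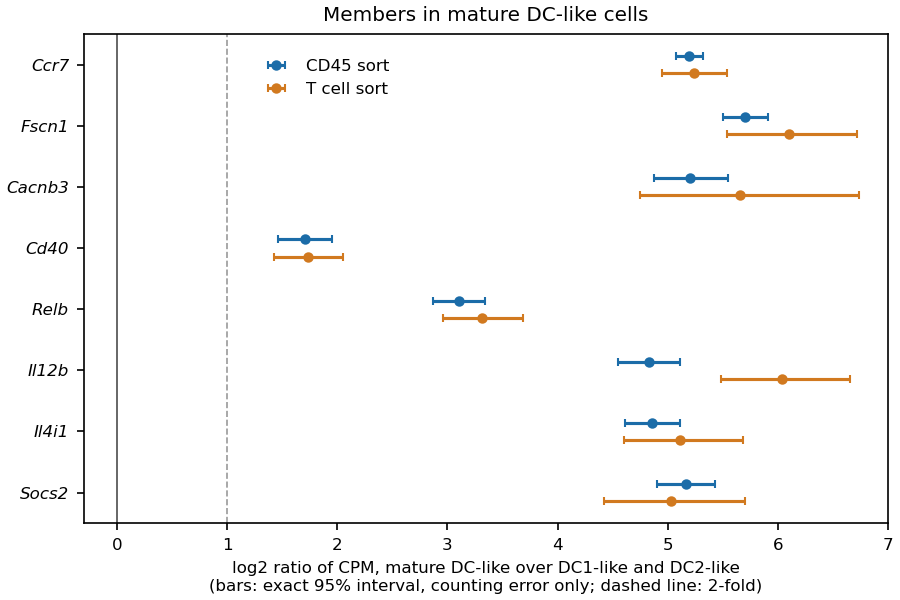
Log2 ratio of CPM in mature DC-like over pooled DC1-like and DC2-like cells (x axis) for each gene, with exact 95% intervals for counting error, in the CD45 sort (blue) and the T cell sort (orange). *Cd40* lies nearest to the dashed 2-fold line (1.71 and 1.73) and *Fscn1* farthest beyond it (5.70 and 6.09).

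Shares of cells with a UMI were compared after thinning each cell to 3000 UMIs, since classes differed in depth. This left out 1 of 60 mature DC-like cells. Thinned shares in mature DC-like cells of the CD45 sort were 98.3% for *Ccr7*, 78.0% for *Fscn1*, 76.3% for both *Relb* and *Socs2*, 72.9% for *Il4i1*, 62.7% for *Cacnb3*, 42.4% for *Cd40* and 20.3% for *Il12b*. Before thinning they were 98.3%, 83.3%, 98.3%, 95%, 85.0%, 85.0%, 78.3% and 33.3% in the same order, *Relb* before *Socs2*. For comparison, NK/ILC-like cells had thinned shares of 4.45% for *Ccr7*, 12.8% for *Relb*, 2.94% for *Socs2*, 1.04% for *Il4i1* and 0.22% or less for the other 4. The median depth was 8741.5 UMIs in mature DC-like and 4552 UMIs in NK/ILC-like cells. Thinned *Relb* shares in DC1-like (9.80%), DC2-like (12.8%), pDC-like (12.4%) and macrophage-like cells (10.4%) were at or near the NK/ILC-like share, so they are not read as differences. Of 2631 NK/ILC-like cells 2518 were ZsG-, and whether UMIs in any of these classes came from free RNA was not tested.

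The genes were detected in the same cells. Thinned mature DC-like cells held UMIs of a median of 6 of the 8 genes in both sorts, and 86.4% (51 of 59) held 4 or more in the CD45 sort and 92.9% (52 of 56) in the T cell sort. In the other DC classes of the CD45 sort the median was 0. There, 4 or more were found in 2.92% of DC2-like cells, 0.80% of pDC-like cells and none of 102 DC1-like cells. Among T-like cells the share was 0.06%, and none of 614 classical monocyte-like or 2314 NK/ILC-like cells reached it. All 8 genes were seen together in at least 1 thinned mature DC-like cell of the CD45 sort.

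**Figure D3:**
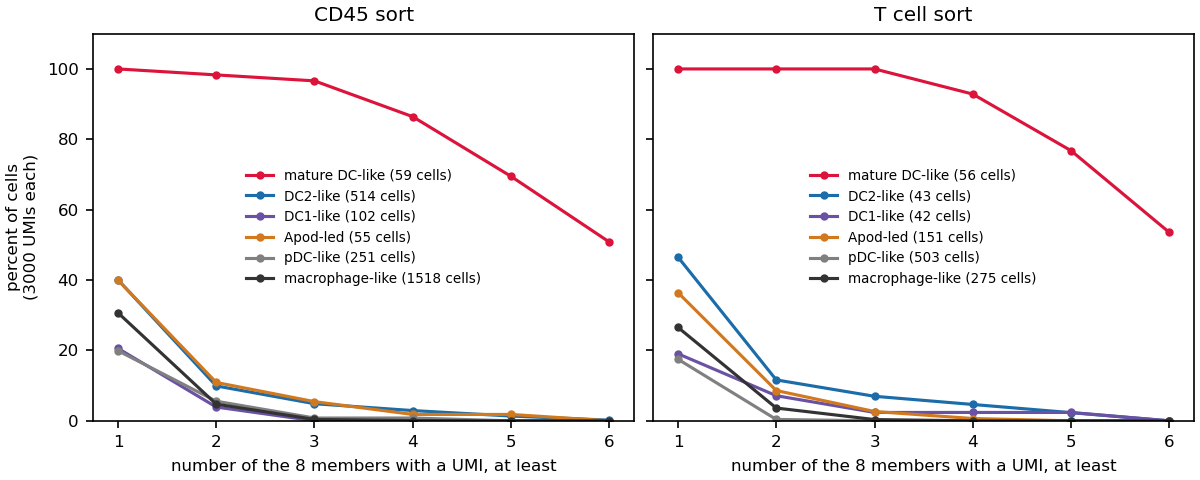
Percent of cells (y axis, each thinned to 3000 UMIs) with a UMI of at least the given number of the 8 genes (x axis) in 6 classes of the CD45 sort (left) and the T cell sort (right). Mature DC-like cells stay at 86.4% and 92.9% for 4 genes, while every other class drawn is below 5% there.

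Within mature DC-like cells some pairs had unlike shares in the sorts. Others were close, such as *Il4i1* in 72.4% of cells with *Ccr7* in the CD45 sort and 74.5% in the T cell sort. Of the 46 thinned cells of the CD45 sort with *Fscn1*, 87.0% also held *Socs2*, compared with 38.5% of the 13 without *Fscn1*. The T cell sort gave 85.1% of 47 cells with *Fscn1* and 66.7% of 9 without. *Cacnb3* was found in 73.9% of cells with *Fscn1* and 23.1% of those without in the CD45 sort, but in 57.4% and 55.6% in the T cell sort. *Il4i1* was at 69.6% with *Fscn1* and 84.6% without, and at 74.5% and 77.8% in the T cell sort. The 12 cells of the CD45 sort with *Il12b* held *Cd40* in 66.7% of cases, compared with 36.2% of the 47 cells without, while the T cell sort gave 54.5% and 51.1%. These are shares of few cells and are given as a description, and no difference between the sorts is read from them.

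ZsG+ and ZsG- mature DC-like cells of the CD45 sort were then compared, 48 cells against 12. Of the 8 genes, *Il4i1* and *Cd40* were at least 2-fold higher in ZsG+ cells and *Fscn1* was at least 2-fold lower. Among 3053 genes with 20 or more UMIs, 14.3% were higher and 5.86% lower by that rule. *Il4i1* was at 776 CPM in ZsG+ and 193 CPM in ZsG- cells, a log2 ratio of 2.00 (1.32 to 2.78), from 347 and 18 UMIs. Per cell it ran from 0 over a median of 541 to 6105 CPM in ZsG+ cells, and from 0 over 94.2 to 580 CPM in ZsG- cells, so the groups overlapped in the lower range. *Cd40* was at 339.7 and 139.7 CPM, a log2 ratio of 1.28 (0.46 to 2.22), from only 13 UMIs in ZsG- cells.

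*Fscn1*, *Ccr7*, *Cacnb3* and *Relb* had ratios of the opposite sign in these cells. *Fscn1* was at 1256 CPM in ZsG+ and 2612 CPM in ZsG- cells, a log2 ratio of -1.06 (-1.28 to -0.83), with medians per cell of 1203 and 2415 CPM. With TMM factors it was -0.86 (-1.08 to -0.64), short of 2-fold. *Ccr7* was at 2749 and 4353 CPM, a log2 ratio of -0.66 (-0.83 to -0.50), and its ZsG- cells ran from 2117 to 9758 CPM without a cell at 0. *Cacnb3* had a ratio of -0.81 (-1.23 to -0.37) and *Relb* one of -0.60 (-1.05 to -0.14). *Socs2* (-0.21, -0.58 to 0.19) and *Il12b* (-0.05, -0.49 to 0.43) had intervals that included 0. The *Il12b* ratio rested on few cells. All 50 ZsG- UMIs lay in 2 of 12 cells. In ZsG+ cells 18 of 48 had a UMI, and 1 cell held 116 of the 233. The ranges of the gates overlapped for all of these genes.

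Other markers moved with the gates in these cells. The summed level of 9 macrophage markers was 224 CPM in ZsG+ mature DC-like cells, with all 9 detected, and 0 in ZsG- ones. This was not particular to them: the sums were 543 and 0 CPM in DC1-like and 574 and 47.9 CPM in pDC-like cells. In mature DC-like cells the 8 DC2 markers summed to 592 CPM (6 detected, *Cd209a* and *Clec4a4* at 0) against 64.5 CPM (2 detected). The 7 T cell markers summed to 6.71 CPM in ZsG+ and 107 CPM in ZsG- cells. The 11 mature DC markers summed to 5346 and 5084 CPM. The part of these markers, and of the cells that carry them, in the ratios above was not tested. ZsG- mature DC-like cells of the T cell sort were 5, too few for a called ratio. With the gates as taken here, the genes called 2-fold in the CD45 sort lay the other way in that sort. In its ZsG+ and ZsG- cells *Il4i1* was at 791 and 1065 CPM, *Cd40* at 327 and 543 CPM and *Fscn1* at 1375 and 418 CPM. Whether the sorts differ was not tested.

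**Figure D4:**
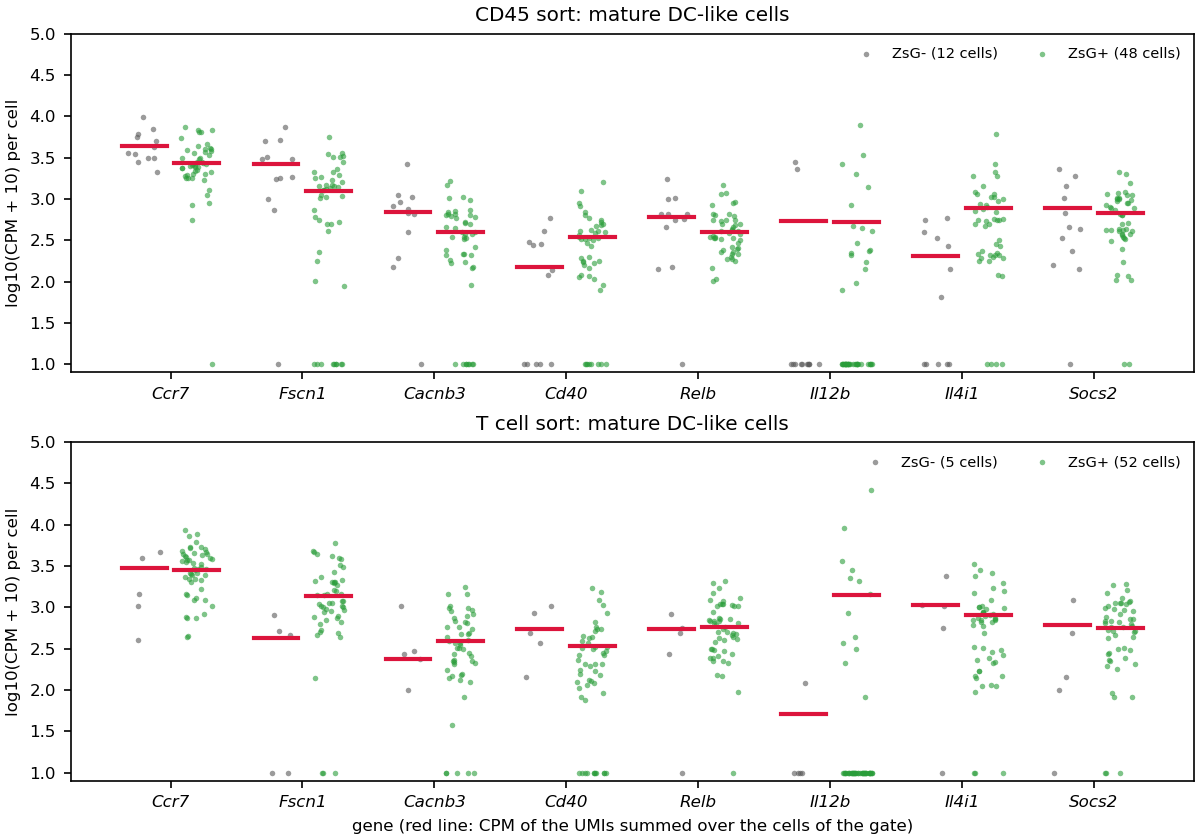
Level per mature DC-like cell (y axis, log10 of CPM + 10, so that cells without a UMI sit at 1) for each gene in ZsG- (gray) and ZsG+ (green) cells of the CD45 sort (top, 12 and 48 cells) and the T cell sort (bottom, 5 and 52 cells); red lines are the CPM of the summed UMIs. *Ccr7* is a narrow band, most *Il12b* cells sit at the bottom with a few very high ones, and in the CD45 sort the *Il4i1* line is higher and the *Fscn1* line lower in ZsG+ cells.

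DC2-like cells gave another picture, with 449 ZsG+ and 68 ZsG- cells. The gates differed in their sub-clusters: a *Cd209a*-led one held 58 of the ZsG- but only 26 of the ZsG+ cells. The 9 macrophage markers summed to 3803 CPM in ZsG+ and 132 CPM in ZsG- cells, and the 8 DC2 markers to 1704 and 2382 CPM. The part of these differences in the ratios below was not tested. Of the 8 genes, 5 were at least 2-fold higher in ZsG+ DC2-like cells, beside 12.7% of 9593 genes. At a mitochondrial limit of 5% the cells were clustered anew, and the DC2-like class then held ZsG- cells that it did not hold before. With that limit 2 genes were at least 2-fold higher, *Fscn1* was at -0.30 (-0.80 to 0.24) and *Ccr7* at 1.02 (0.57 to 1.49). The share of all genes is not given for that limit. In the main clustering *Ccr7* had 743 UMIs (104 CPM) in ZsG+ and 3 UMIs (4.01 CPM) in ZsG- cells, a log2 ratio of 4.70 (3.15 to 6.98). *Fscn1* had 268 and 0 UMIs, *Il12b* 162 and 0, and *Cacnb3* 111 and 0. Set against a floor of 3 UMIs these were 9.39-fold, 5.68-fold and 3.89-fold higher, or log2 values of 3.23, 2.50 and 1.96. The lower limits of the exact interval were below these values, at 2.92 for *Fscn1* and 1.64 for *Cacnb3*. *Socs2* had a ratio of 1.87 (0.62 to 3.51), while *Il4i1* (0.85, 0.02 to 1.83), *Relb* (0.25, -0.26 to 0.80) and *Cd40* (-0.01, -0.35 to 0.34) stayed below 2-fold.

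These DC2-like values came from few cells. Only 37 of the 517 DC2-like cells, 36 of them ZsG+, had UMIs of 4 or more of the genes before thinning. They held all *Fscn1* UMIs of the class, 95.7% of *Il12b*, 95.5% of *Cacnb3*, 87.1% of *Ccr7*, 79.8% of *Il4i1*, 68.2% of *Socs2*, 33.9% of *Relb* and 21.9% of *Cd40*. The 37 cells had a median of 23104 UMIs, beside 12358 in the other 480. Of the 37, 16 (43.2%) were among the 5% of cells with the highest doublet score, against 7.92% of the others and 1.67% of mature DC-like cells. Their 11 mature DC markers summed to 1498 CPM against 229.6 CPM in the others. Their 9 macrophage markers summed to 5886 against 3166 CPM, and their DC2 markers to 1354 against 1817 CPM. Whether these barcodes each held more than 1 cell was not tested.

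Without the 37 cells, an alternative added after the data were seen, the gates of the DC2-like cells looked different. *Ccr7* had 93 and 3 UMIs, a log2 ratio of 1.86 (0.27 to 4.17), and *Fscn1* had no UMI in either gate. *Il4i1* turned to -1.33 (-2.38 to -0.14), from 34 and 10 UMIs. *Cd40* (-0.17, -0.52 to 0.20), *Relb* (-0.21, -0.73 to 0.37) and *Socs2* (0.64, -0.80 to 2.56) had intervals that included 0. Because the cells left out were chosen by their UMIs of the same 8 genes and 36 of 37 were ZsG+, their removal had to lower the ZsG+ values, so these ratios describe the other cells and are no check of the calls.

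**Figure D5:**
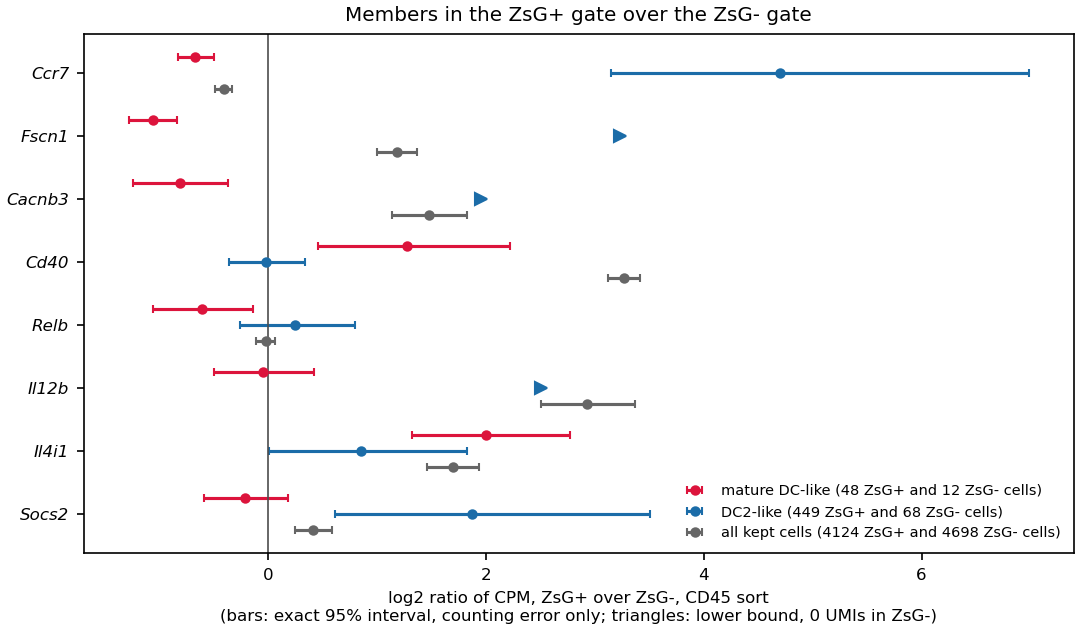
Log2 ratio of CPM, ZsG+ over ZsG- (x axis), for each gene in mature DC-like cells (red), DC2-like cells (blue) and all kept cells (gray) of the CD45 sort, with exact 95% intervals for counting error; triangles are lower bounds where ZsG- cells had 0 UMIs. *Fscn1*, *Ccr7* and *Cacnb3* are negative in mature DC-like and positive in DC2-like cells, where 37 cells hold most of their UMIs, and *Cd40* and *Il4i1* are positive in mature DC-like cells.

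In other classes few ratios could be formed, and the share of all genes past 2-fold is not given for them. Classical monocyte-like cells held less *Cd40* in the ZsG+ gate, 159 against 241 CPM, a log2 ratio of -0.60 (-0.93 to -0.25) that stayed below 2-fold. In DC1-like cells *Cd40* (0.19, -0.80 to 1.30), *Relb* (0.16, -0.94 to 1.41) and *Ccr7* (-0.43, -1.69 to 0.97) all had intervals that included 0. In pDC-like cells *Socs2* was higher in 24 ZsG+ than in 227 ZsG- cells, with 13 and 34 UMIs and a log2 ratio of 2.26 (1.21 to 3.22). *Il4i1* in *Apod*-led cells had a ratio of 2.84 (1.66 to 4.32), from 91 and 6 UMIs, but the 4 cells that held 78.4% of these UMIs were all ZsG+. The other 51 *Apod*-led cells were at 46.1 CPM. All 39 *Fscn1* UMIs of pDC-like cells were in ZsG- cells, and a cluster of 27 ZsG- pDC-like cells was at 93.2 CPM *Fscn1* and 136 CPM *Ccr7*. Of those 27 cells, 66.7% were among the 5% with the highest doublet score.

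Over all kept cells of the CD45 sort, 5 of the 8 genes were at least 2-fold higher in the ZsG+ gate, beside 16.0% of 13622 genes. The log2 ratios were 3.27 (3.12 to 3.42) for *Cd40*, 2.93 (2.51 to 3.37) for *Il12b*, 1.70 (1.46 to 1.94) for *Il4i1*, 1.48 (1.14 to 1.83) for *Cacnb3* and 1.18 (1.00 to 1.37) for *Fscn1*. *Ccr7* was lower at -0.40 (-0.48 to -0.33), and *Relb* was level at -0.02 (-0.11 to 0.07). The gates differed in their cells: of 1542 macrophage-like cells 2 were ZsG-, of 809 *Ly6i*-led cells none was, and of 1751 T-like cells 1534 were. How much of each ratio came from these cell numbers was not tested. Within mature DC-like cells the *Fscn1* and *Cacnb3* ratios had the other sign.

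In the T cell sort all kept cells gave 5 genes at least 2-fold higher in the library taken as ZsG+, beside 4.08% of 11829 genes. They were *Il12b* (6.52, 5.16 to 8.40; 845 and 4 UMIs), *Fscn1* (3.72, 3.18 to 4.32), *Cacnb3* (2.83, 2.10 to 3.66), *Il4i1* (2.24, 1.88 to 2.63) and *Socs2* (1.36, 1.09 to 1.65). That library held 52 of the 57 mature DC-like cells, and 2 of these cells held 369 and 252 of its 845 *Il12b* UMIs. Among the T-like cells themselves, 733 ZsG+ and 648 ZsG-, only *Il4i1* was called higher, beside 4.68% of 10012 genes. It had 56 and 5 UMIs, 8.46 and 1.07 CPM, a log2 ratio of 2.99 (1.68 to 4.67). *Ccr7* (0.29, 0.10 to 0.48), *Socs2* (0.52, 0.06 to 0.98) and *Relb* (0.11, -0.15 to 0.38) stayed below 2-fold. With each cell thinned to 3000 UMIs, *Il4i1* was no longer called, at 1.28 (-0.78 to 3.83). In T-like cells of the CD45 sort *Cd40* had 39 UMIs in 217 ZsG+ and 17 UMIs in 1534 ZsG- cells, 13.6 and 0.84 CPM, a log2 ratio of 4.02 (3.16 to 4.93), and *Il4i1* had a ratio of 1.03 (0.02 to 1.95). Of those T-like cells, 6.05% were among the 5% with the highest doublet score. The share of all genes past 2-fold is not given for them. Macrophage-like and *Ly6i*-led cells, which lay almost wholly in the ZsG+ library, had higher *Cd40* levels. Whether *Cd40* UMIs of T-like cells came from such cells or from free RNA was not tested.

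The partners of the 8 genes were read from lists by role, in mature DC-like over DC1-like and DC2-like cells of the CD45 sort. Of the 61 listed genes with 20 or more UMIs, 32 were at least 2-fold higher and 9 lower, beside the 12.1% and 24.3% of all genes given above for this comparison. In the costimulation list 4 of 7 were higher and none lower, with a median log2 ratio of 1.07. *Cd70*, the ligand of CD27, was at 6.63 (5.45 to 8.03) and *Tnfsf4*, the OX40 ligand, at 6.11 (4.48 to 8.15), while *Tnfsf9*, the 4-1BB ligand, was at -0.10. In the regulatory list 6 of 9 were higher and 1 lower (median 1.24), led by *Cd200* (5.17), a ligand that quiets myeloid cells, and *Aldh1a2* (4.37), which makes retinoic acid, with *Socs3* lowest at -1.43. Of 13 NF-kappaB genes 9 were higher and none lower (median 1.22). *Map3k14*, the kinase that starts the non-canonical pathway in which RelB acts, was at 2.98 and *Traf1* at 1.97, while *Tnfaip3*, an inhibitor of the canonical pathway, was at -0.12. *Cd70* was at 74.0 CPM in mature DC-like and 0.75 CPM in DC1-like and DC2-like cells of the CD45 sort. In the T cell sort it was at 119 and 12.5 CPM, a smaller log2 ratio of 3.26 (2.49 to 4.11), and *Cd200* had a ratio of 4.92. *Tnfsf4* had 29 and 0 UMIs there, while *Aldh1a2*, with 4 and 2, had too few for a ratio.

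Chemokines and migration genes went both ways. Of 5 chemokines with enough UMIs 3 were higher and 2 lower (median 1.99). *Ccl5* was at 12251 CPM, a log2 ratio of 5.43 (5.36 to 5.49), and *Cxcl10* at -2.65. *Ccl17*, a chemokine for CCR4-bearing T cells, was at 2.78 in the CD45 sort but at -4.45 in the T cell sort, where the list's median was -0.53. Of 12 migration and cytoskeleton genes 4 were higher and 2 lower (median 0.37), with *Samsn1* at 4.28 and *Myo1g* at 2.04. *Ccr2*, the receptor that brings monocytes and DC precursors into tissue, was lowest at -4.04 (-4.87 to -3.31), so the receptors *Ccr7* and *Ccr2* lay at opposite ends.

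Of 7 genes of the IL-12 and IL-15 families 4 were higher and 1 lower (median 1.25). The 1 lower was *Il23a*, named after its values were seen, at -1.24 (-6.58 to 1.32) from 1 and 41 UMIs. *Il12a* had 0 and 2 UMIs, too few for a ratio. In the T cell sort neither had a UMI in mature DC-like cells, so of IL-12 and IL-23 mainly transcripts of p40 were found. *Il15ra*, which presents IL-15, was at 3.06 (2.56 to 3.54) and *Il12rb2* at 2.00, while *Il12rb1*, with no UMI in mature DC-like cells and 97 in the other DCs, was not called at a floor of 3 UMIs. Both calcium channel genes with enough UMIs were higher, *Cacna1s* at 3.80 (3.37 to 4.22) and *Cacna1d* at 2.03 from 4 and 17 UMIs. The 2 genes of the aryl hydrocarbon receptor list were lower, *Ahr* at -1.48 (-2.29 to -0.77) and its target *Tiparp* at -3.04 (-4.36 to -1.99). Unlike *Socs2*, none of the 4 genes of the SOCS list was higher: *Socs6* was at -0.17 and *Socs4* at -0.57, and *Socs5*, with 0 and 41 UMIs, was not called. The 1 called lower was *Socs7*, named after its values were seen, at -1.43 (-4.49 to 0.47) from 2 and 93 UMIs.

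Likeness in level was described by Pearson's r of log2(CPM + 1) over 25 groups of class and gate of the CD45 sort and 11367 genes. These groups share libraries and differ in depth, so r is a description. Only 1 of them was mature DC-like (ZsG+), since the 12 ZsG- cells were below the minimum of 20 cells. A gene high in that group and low elsewhere can thus have a large r from this group alone. By Spearman's correlation *Fscn1* and *Cacnb3* were at 0.72. *Fscn1* and *Cacnb3* were each other's closest gene (r = 0.95), followed for both by *Nudt17* and *Mreg*. *Cd40* was most like *Atp6v0a1* (0.96), *Marcks* and *Ifi30* (both 0.94), genes of lysosomes and the cytoskeleton, and shared none of its 3 with the other members. *Ccr7* was most like *Tpm1* (0.83), *Pakap* and *Serpinb6b*, and *Il12b* most like *Nudt17* (0.88), *Flrt3* and *Gm13546*. *Relb* was most like *Tmem123* (0.85), *Gm13546* and *Mreg*, and *Socs2* most like *Tmem123* (0.84), *Gpr55* and *Sema7a*. *Il4i1* was most like *Fscn1* (0.82), *Cacnb3* and *Smarce1*. *Nudt17*, *Mreg*, *Serpinb6b* and *Tmem123* were among the markers that named the mature DC-like cells.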

How the data were processed

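The authors aligned 10x 3′ single-cell reads to mm10, and the deposited tables hold raw UMI counts per gene and barcode, with the libraries of a sort in 1 table. The submitters' notes name Cell Ranger 6.1.2, while the header of the CD45 table names 7.0.0. The limits on genes and mitochondrial UMIs were those of the study's methods. In the CD45 sort cells were kept with 1000 to 6000 genes and under 10% mitochondrial UMIs. In the T cell sort the limits were 50 to 6000 genes and under 15%. The study also removed every cell of the T cell sort with less than 0.055% CD3 reads. Here that limit was set on T-like cells only, so DCs and other cells without T cell genes were kept. Clustering used Seurat 5.3.0 (R 4.3.3) with 2000 variable genes and 20 components, with the 8 genes and the partner lists left out. A cluster took the class whose markers led it, if at least 4 of them and 50% of those listed (80% for pDC) were in 10% of its cells at 1.2 times the level of other cells, a rule set after the clusters were seen. Myeloid clusters that also raised T cell markers (209 cells) were left out as mixed. The DC, monocyte and T cell clusters were clustered again. The genes, lists, markers and comparisons were chosen with earlier results of these data known. Scrublet (scanpy 1.11.5) called 2 cells of the CD45 sort and 14 of the T cell sort, and both calls are taken as void. No cell was removed as a doublet, and the highest 5% of scores served as a marker.

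Levels are UMIs per 1000000 summed UMIs (CPM) of a class and gate, with exact Poisson intervals. Ratios have exact conditional intervals and were called at 2-fold with at least 20 UMIs over both groups, a group without UMIs being set to 3. Ratios between gates needed 10 cells in each. Shares have exact binomial intervals and used cells thinned to 3000 UMIs. The named partners were the 2 highest and the 1 lowest ratio of each list, and the 3 genes most like each member had at least 100 UMIs. Coordinates are those of GRCm38 (GENCODE). Code ran under Python 3.11.15 with numpy 2.4.6, scipy 1.17.1 and pandas 2.3.3, and was tested on simulated data. The alternatives were other filters, totals, thinning, doublet removal, clustering settings and TMM factors (edgeR 4.0.16).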

Additional observations from a re-analysis of the deposited data

Results flagged for a closer look

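In the CD45 sort 3 genes had log2 ratios of ZsG+ over ZsG- with opposite signs in mature DC-like and DC2-like cells. *Fscn1* was at -1.06 in mature DC-like cells, and in DC2-like cells it was at 3.23 against a floor of 3 UMIs. *Ccr7* was at -0.66 and 4.70, and *Cacnb3* at -0.81 and, against that floor, 1.96. At a mitochondrial limit of 5%, with the cells clustered anew, the DC2-like values were -0.30 (-0.80 to 0.24) for *Fscn1*, 1.02 for *Ccr7* and 0.38 (-0.60 to 1.55) for *Cacnb3*. The opposite sign of *Fscn1* was lost there, but the DC2-like class then also held ZsG- cells that it did not hold before. With 1 library per gate the difference was not tested, and the DC2-like values came mostly from the 37 cells with UMIs of 4 or more of the genes.

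The same 3 genes also had opposite signs in the 2 sorts when DC1-like, DC2-like and mature DC-like cells were pooled. In the CD45 sort *Fscn1* was at -1.09, *Ccr7* at -0.60 and *Cacnb3* at -0.69. In the T cell sort they were at 2.77, 0.70 and 1.80, from 123 ZsG+ and 20 ZsG- cells. This difference was not tested either, and under the other reading of the gate labels the 3 values of the T cell sort would be negative. The make-up of the pool also differed. Mature DC-like cells were 12 of 107 ZsG- and 48 of 573 ZsG+ pooled cells in the CD45 sort. In the T cell sort they were 5 of 20 and 52 of 123. How much of each pooled ratio came from these cell numbers was not tested. The library taken as ZsG+ held 108 of 137 Treg-like, 149 of 215 exhausted CD8 T-like and 79 of 224 naive T-like cells. Of all 1381 T-like cells it held 733.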

How the results depend on the processing

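No paired analysis was possible because each gate had 1 library. The 8 genes kept their highest level in mature DC-like cells under each of the 9 alternatives tried for it, although the levels fell to between 215.5 and 1745 CPM with classes from the highest marker score. All 8 stayed at least 2-fold above DC1-like and DC2-like cells except *Cd40* in ZsG- cells alone. The share of all genes higher by that rule was 12.1% with both gates pooled and is not given for each alternative. The number of genes with a UMI in 50% or more of mature DC-like cells fell from 6 to 2 when at least 2 UMIs were asked for. The share of mature DC-like cells with 4 or more of the genes was 98.3% without thinning. The 5 calls between gates in DC2-like cells became 2 with thinned cells, 3 without the 5% of cells with the highest doublet scores, and 2 at a mitochondrial limit of 5%. They became 2 (1 higher, 1 lower) without cells holding 4 or more of the genes, a filter on the same genes that had to lower the ZsG+ values and is no check. At the mitochondrial limit of 5% *Fscn1* in DC2-like cells turned to -0.30 (-0.80 to 0.24), with the cells clustered anew and other ZsG- cells in the class. In mature DC-like cells TMM factors left 2 genes higher and none lower. For all such counts between gates the share of all genes is given for the main setting only. The single call in T-like cells of the T cell sort was lost (0) with thinned cells, where too few UMIs were left for a call. With the other order of the library labels, by construction, *Il4i1* there was -2.99. Of the 24 genes most like a member, 5 were named again by Spearman's correlation. The causes were not tested, beyond the 37 DC2-like cells described above. The ZsG- values rest on few cells, 12 mature DC-like and 68 DC2-like.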
